A study of Arabidopsis thaliana with 2 samples.

Results

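Cytosolic ribosomal protein genes encode the protein part of the ribosome that translates nuclear messages. The 54 genes described here belong to 23 protein families of the large subunit, the small subunit and the P-stalk, and were taken by a list of gene identifiers. All 54 were among the 23147 genes listed in either library, and all reached 1 FPKM (fragments counted per unit of gene length and of library size). They covered part of the ribosome only. A further 132 genes had annotated descriptions of cytosolic ribosomal proteins and are used below for comparison. Every member was listed in both libraries, and 35 of the 54 had the word cytosolic in the location text of the annotation.

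Messenger RNA was measured in rosettes of untreated Arabidopsis thaliana Col-0 plants at 28 days of age, in 1 library per genotype. The C3A library came from a pbl19 null mutant carrying PBL19C3A-GFP-HA under the PBL19 promoter (pPBL19), and the WT library from Col-0. PBL19 is a receptor-like cytoplasmic kinase of the class that relays signals from immune receptors. Neither the number of plants per library nor that of independent transgenic lines is stated in the labels. The null allele, the altered residue, the tags and the level of PBL19 differed between the libraries together, and their effects cannot be told apart. With 1 library per genotype no test was possible, and each difference below is one between these libraries. Intervals in brackets cover counting error only.

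Ribosomal proteins are needed in fixed proportion to each other, and their messages are among the most abundant in growing cells. In plants nearly every cytosolic ribosomal protein is encoded by a small family of paralogues whose products take the same place in the ribosome. Their promoters often carry a telo-box or site II elements, short motifs linked to expression in dividing and growing tissue. Mutants in single members are known for pointed first leaves and other defects of leaf shape.

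The C3A library held 12001808 estimated counts over 22564 genes and the WT library 11937705 over 22310 genes. PBL19 itself stood at 465.54 FPKM in C3A and 6.68 FPKM in WT, a plain ratio of 69.7 (95% interval 59.7 to 81.9). The genes tested, 19527 in all, reached 1 FPKM in C3A, in WT or in both, and their median log2 ratio of FPKM + 1, C3A over WT, was 0.14, a fold of 1.1. The middle of the distribution thus lay above 0 on the deposited scale, with 12046 genes above 0 and 7441 below. The values of the ribosomal protein genes are set against that median.

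The ribosomal protein genes were higher in C3A nearly throughout. Their median log2 ratio was 0.52, a fold of 1.43, with a range from -0.05 to 0.86. Of the 54 genes 53 lay above 0, where 61.7% of all genes tested did, and 51 lay above the all-gene median, which 50% of genes exceed by construction. At least 1.5-fold higher in C3A were 22 members, 40.7% of them, beside 18.6% of all genes tested. No member was at least 1.5-fold lower, beside 8.9% of all genes. No member was past 2-fold either, while 7.89% of all genes were at least 2-fold higher and 2.85% at least 2-fold lower. The number past 1.5-fold depends on the scale: with the libraries rescaled to an all-gene median ratio of 1, the members' median was 0.36 and 1 member, AT1G01100, was past it, 1.85% of members beside 13.2% of all genes tested. The members' share past 1.5-fold was thus above the background as deposited and below it when rescaled. The number above the all-gene median was 51 on either scale, but rescaling moves all genes and their median together, so it could hardly change. Numbers past 1.5-fold given below are on the deposited scale.

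The counting interval of the plain FPKM ratio lay above 1 for 49 members, beside 38.5% of the genes listed in both libraries. The interval narrows as counts rise, and most members are abundant, so this share of genes at all levels is not a like comparison. It lay above the all-gene median fold of 1.1 for 48 members, and the share of all genes for this was not computed. The members' interval held 1 for RPL10B, RPL3B, AT4G00810, RPL16A and RPSAb. No member had an interval below 1.

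Summed over the members, FPKM was 10145.7 in C3A and 6936.98 in WT, a ratio of 1.46. The members took 1.40% of all FPKM in C3A, against 0.964% in WT. As a share of estimated counts they took 1.08% in C3A and 0.746% in WT. The median member stood at 182.795 FPKM in C3A and 129.14 FPKM in WT. Over 100 FPKM were 41 members in C3A and 34 in WT, and 6 members were under 20 FPKM in both. The ranking of the members by level was nearly the same in both libraries, with a Spearman correlation of 0.988 over the 54 genes, which share both libraries. In whole rosettes, a larger number of cells rich in ribosomal protein messages and more of these messages per cell cannot be told apart.

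**Figure D1:**
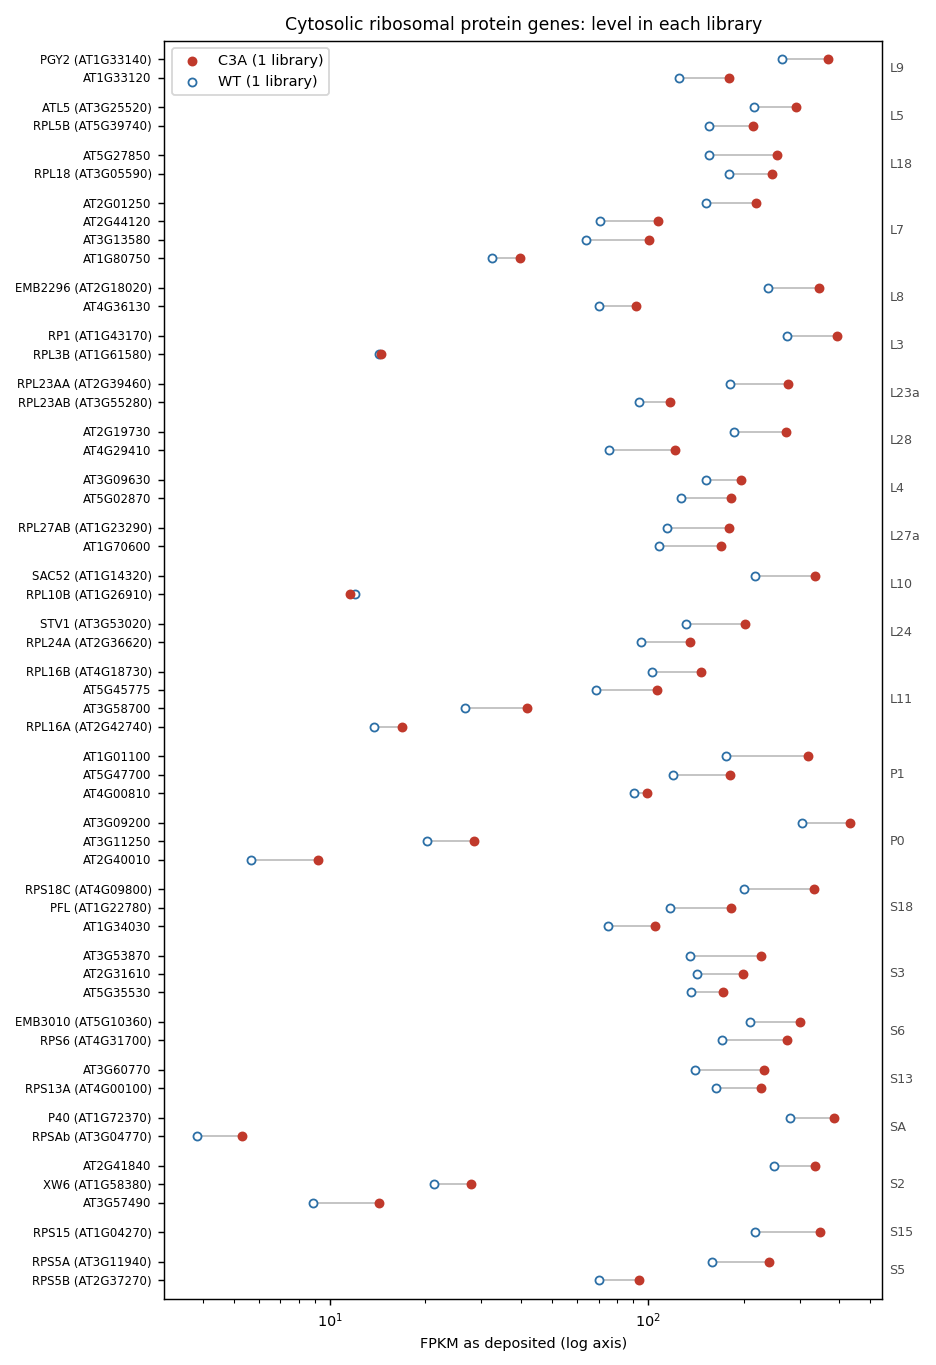
FPKM of each of the 54 genes on a log axis, with filled points for the C3A library and open points for the WT library, grouped by protein family. The filled point lies to the right of the open one for 53 genes, and RPL10B alone has 11.56 FPKM in C3A and 12.01 FPKM in WT.

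The 3 structural groups lay close together. The 30 large subunit genes summed to 5379.4 FPKM in C3A and 3719.5 FPKM in WT, a ratio of 1.45, with a median log2 ratio of 0.52. The 18 small subunit genes summed to 3697.07 FPKM in C3A and 2500.09 FPKM in WT, a ratio of 1.48, with a median of 0.50. For the 6 P-stalk genes the sums were 1069.22 FPKM in C3A and 717.39 FPKM in WT, a ratio of 1.49, with a median of 0.55. Past 1.5-fold were 11 of the large subunit genes (36.7%), 8 of the small subunit genes (44.4%) and 3 of the P-stalk genes (50%). The share of all genes tested was 18.6%, on the deposited scale as well.

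Added up by family over the members only, all 23 families were higher in C3A. The log2 ratio of these sums ran from 0.43 for S2 to 0.68 for S15, a narrower span than that of single genes. By these sums the families differed less from each other than did paralogues within some of them. Family sums and shares, here and below, leave out family genes outside the list. The S2 gene AT1G58983, outside the list, had 295.74 FPKM in C3A and 198.38 FPKM in WT. The order of whole families is thus not given.

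**Figure D2:**
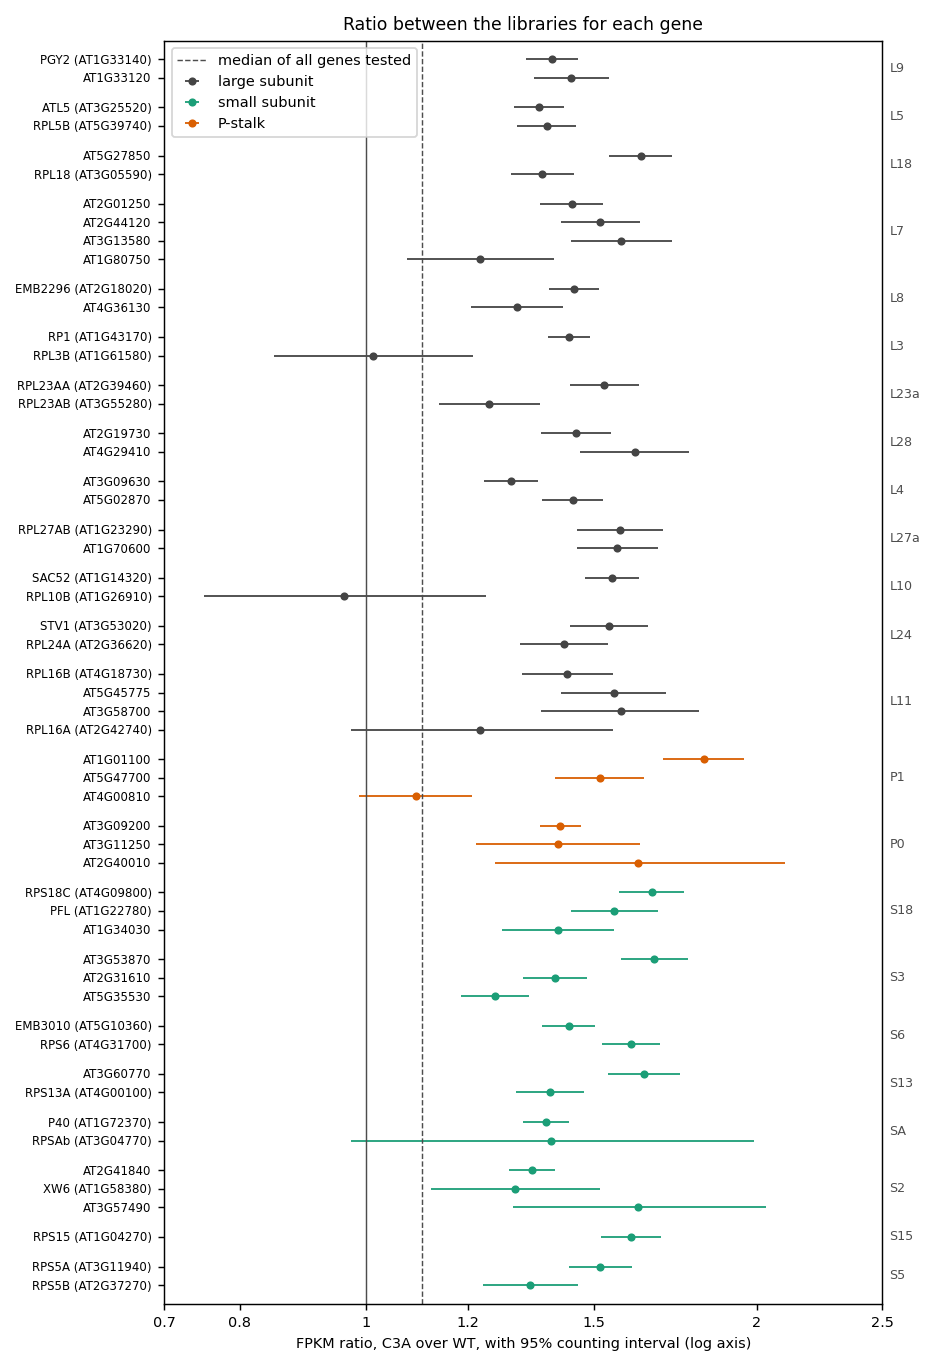
Plain FPKM ratio, C3A over WT, for each of the 54 genes on a log axis, with the 95% counting interval as a bar, a solid line at 1 and a dashed line at the all-gene median fold of 1.1. AT1G01100 lies highest at 1.82, and RPL10B, RPL3B and AT4G00810 lie left of the dashed line.

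Paralogues were contrasted by the ratio of their folds, which does not depend on how the libraries are scaled. Of 42 pairs within 22 families, 19 pairs in 13 families had a counting interval for this ratio that left out 1. The share among pairs of other genes was not computed. For abundant genes these intervals are narrow, so a small difference can leave out 1, and the number does not show that paralogues differ more than other genes. The paralogues are close in sequence, with a median protein identity of 94.7% over the pairs, from 41.9% to 100%. Even so, 40 of the 42 pairs shared no transcript stretch of 75 bases. The families with the largest spread of log2 ratio between paralogues were P1 at 0.73, L10 at 0.68, L3 at 0.50, S3 at 0.41 and L7 at 0.36. L11, also 0.36 when rounded, was just outside.

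The upstream sequences of the paralogue pairs that differed most in the P1, L10 and L3 families are shown because the paralogues of each pair, 92.0%, 96.8% and 86.2% identical in protein, differed in their ratio between the libraries. Each is the 250 bases before the annotated gene start, 5′ to 3′ on the gene's own strand, read from the RefSeq genome TAIR10.1. Capitals mark site II elements, TGGGCC or TGGGCT on either strand. The choice of these genes was made after their values were seen. In order, the windows are chr1:51211-51460 on the minus strand, chr4:347294-347543 minus, chr1:4887864-4888113 plus, chr1:9321400-9321649 plus, chr1:16266303-16266552 plus and chr1:22723153-22723402 minus.
AT1G01100: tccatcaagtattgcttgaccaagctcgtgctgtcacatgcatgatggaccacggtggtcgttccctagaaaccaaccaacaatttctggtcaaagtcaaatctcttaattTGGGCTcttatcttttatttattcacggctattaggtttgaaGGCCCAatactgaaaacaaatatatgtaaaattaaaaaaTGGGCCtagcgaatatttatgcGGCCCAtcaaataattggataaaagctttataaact
AT4G00810: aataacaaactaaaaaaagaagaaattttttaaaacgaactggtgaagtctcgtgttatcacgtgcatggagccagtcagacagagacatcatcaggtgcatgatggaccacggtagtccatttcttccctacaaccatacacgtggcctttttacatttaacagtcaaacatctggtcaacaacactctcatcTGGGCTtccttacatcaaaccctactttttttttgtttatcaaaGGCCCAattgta
SAC52: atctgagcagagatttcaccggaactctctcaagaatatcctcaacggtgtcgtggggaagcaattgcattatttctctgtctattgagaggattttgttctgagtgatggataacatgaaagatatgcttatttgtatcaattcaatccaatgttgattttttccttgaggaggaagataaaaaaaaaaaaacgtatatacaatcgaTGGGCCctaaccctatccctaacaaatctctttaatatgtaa
RPL10B: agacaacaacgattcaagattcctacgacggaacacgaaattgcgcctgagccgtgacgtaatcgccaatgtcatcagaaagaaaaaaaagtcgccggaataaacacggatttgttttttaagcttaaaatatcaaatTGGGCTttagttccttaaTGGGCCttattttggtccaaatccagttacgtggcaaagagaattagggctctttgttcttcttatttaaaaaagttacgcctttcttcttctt
RP1: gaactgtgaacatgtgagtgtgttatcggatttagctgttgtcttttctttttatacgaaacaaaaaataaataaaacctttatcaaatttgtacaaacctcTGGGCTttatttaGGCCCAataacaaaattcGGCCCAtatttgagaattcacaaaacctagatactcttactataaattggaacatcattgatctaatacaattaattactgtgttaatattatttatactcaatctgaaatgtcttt
RPL3B: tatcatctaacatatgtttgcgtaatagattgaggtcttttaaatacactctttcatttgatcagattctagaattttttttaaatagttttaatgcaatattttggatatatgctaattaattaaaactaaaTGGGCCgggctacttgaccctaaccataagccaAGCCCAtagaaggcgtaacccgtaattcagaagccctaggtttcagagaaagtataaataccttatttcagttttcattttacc

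Site II letters occurred 4 times in the window of AT1G01100 and 2 times in that of AT4G00810. SAC52 had 1 and RPL10B 2, while RP1 had 3 and RPL3B 2. None of the 6 held the telo-box AAACCCTAA on either strand. With the first 50 bases of the gene added, the counts were 4 for both AT1G01100 and AT4G00810, 2 for both SAC52 and RPL10B, and 3 for RP1 and 2 for RPL3B, so the differences in the P1 and L10 pairs held only for the bases before the start. A match in letters does not show that the site is used.

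Over all members, in the same 300-base window of 250 bases before and 50 after the start, a site II element was present for 43 of 54 genes, or 79.6%. The share was 78.0% of the other cytosolic ribosomal protein genes, 37.0% of plastid ribosomal protein genes and 21.7% of all 27443 protein-coding promoters. At least 2 such elements were found for 63.0% of the members and 13.6% of all promoters. A telo-box was present for 12 members, 22.2%, beside 32.6% of the other cytosolic genes, 7.41% of the plastid genes and 3.60% of all promoters. Both motifs, neither of which contains the other, occurred together in 18.5% of the members' windows and 1.29% of all. Within the members the median log2 ratio was 0.52 for the 43 genes with a site II element, from -0.05 to 0.86. For the 11 without it was 0.54, from 0.39 to 0.73. The 12 genes with a telo-box had a median of 0.56, from 0.42 to 0.71, and the 42 without 0.51, from -0.05 to 0.86. The medians were thus close, while the lowest ratios were all of genes without a telo-box. The part of either motif in the ratios was not tested.

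The P-stalk is the flexible arm of the large subunit that recruits elongation factors, with P0 at its base on the ribosomal RNA and P1 and P2 as acidic dimers along it. In the P1 family AT1G01100 (chr1:49909-51210, minus strand) had 319.73 FPKM in C3A and 175.63 FPKM in WT, a ratio of 1.82 (1.70 to 1.96). AT5G47700 (chr5:19327566-19328986, minus) had 181.44 FPKM in C3A and 119.85 FPKM in WT, a ratio of 1.51. AT4G00810 (chr4:345911-347293, minus) had 99.16 FPKM in C3A and 90.72 FPKM in WT, a ratio of 1.09 (0.989 to 1.21). AT1G01100 thus had the highest ratio of all members and AT4G00810 one of the lowest, although their proteins are 92.0% identical. The fold of AT1G01100 was 1.67 times that of AT4G00810 (1.47 to 1.88) and 1.20 times that of AT5G47700 (1.08 to 1.34). AT1G01100 held 53.3% of the family's FPKM in C3A and 45.5% in WT. By estimated counts its share was 47.6% in C3A (46.1 to 49.0) and 39.9% in WT (38.1 to 41.7). The order of the 3 paralogues by level was the same in both libraries.

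In the P0 family the dominant gene AT3G09200 had 431.30 FPKM in C3A and 305.33 FPKM in WT, the highest level of any member in either library. AT3G11250 followed with 28.41 FPKM in C3A and 20.20 FPKM in WT, and AT2G40010 with 9.18 FPKM in C3A and 5.66 FPKM in WT. Their ratios of 1.41, 1.41 and 1.62 gave no pair whose interval left out 1. AT3G09200 held 92.0% of the family's FPKM in C3A and 92.2% in WT.

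L10 sits near the catalytic centre of the large subunit and takes part in joining the subunits. SAC52 (AT1G14320, chr1:4888114-4889704, plus) had 335.94 FPKM in C3A and 217.05 FPKM in WT, a ratio of 1.55 (1.48 to 1.62). RPL10B (AT1G26910, chr1:9321650-9323028, plus), 96.8% identical in protein, had 11.56 FPKM in C3A and 12.01 FPKM in WT. Its ratio was 0.963 (0.751 to 1.24), the lowest of all members, on 128.72 estimated counts in C3A and 132.99 in WT. The ratio between these folds was 1.61 (1.25 to 2.07). SAC52 held 96.7% of the pair's FPKM in C3A and 94.8% in WT. A further gene of the family outside the list, AT1G66580, had 161.24 FPKM in C3A and 107.67 FPKM in WT.

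L3 lies beside the catalytic centre, and its pair looked much like the L10 pair. RP1 (AT1G43170, chr1:16266553-16268945, plus) had 392.42 FPKM in C3A and 273.62 FPKM in WT, a ratio of 1.43 (1.38 to 1.49). RPL3B (AT1G61580, chr1:22720560-22723152, minus) had 14.49 FPKM in C3A and 14.29 FPKM in WT, a ratio of 1.01 (0.850 to 1.21). The ratio between the folds was 1.41 (1.18 to 1.69) at a protein identity of 86.2%. By estimated counts RP1 held 96.5% of the pair in C3A (96.0 to 96.9) and 95.1% in WT (94.4 to 95.6). In both pairs the minor paralogue was nearly level between the libraries while the major one was higher in C3A. This does not extend to the whole L10 family, since AT1G66580, also less abundant than SAC52, was higher in C3A. RPL3B overlaps a gene on the opposite strand, AT1G61575, and whether counting used strand is not known.

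The Spearman correlation of mean level and log2 ratio over the 54 members, which share both libraries, was 0.25. The 10 members with a mean under 50 FPKM had a median log2 ratio of 0.38, from -0.05 to 0.64, and 3 of them were past 1.5-fold. The 44 members at or above that level had a median of 0.52, from 0.13 to 0.86, with 19 past 1.5-fold. Of all genes tested, at any level, 18.6% were past 1.5-fold. AT2G40010 of the P0 family, AT3G57490 of the S2 family and AT3G58700 of the L11 family were the 3 at low level past 1.5-fold. This division at 50 FPKM was chosen after the values were seen.

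**Figure D3:**
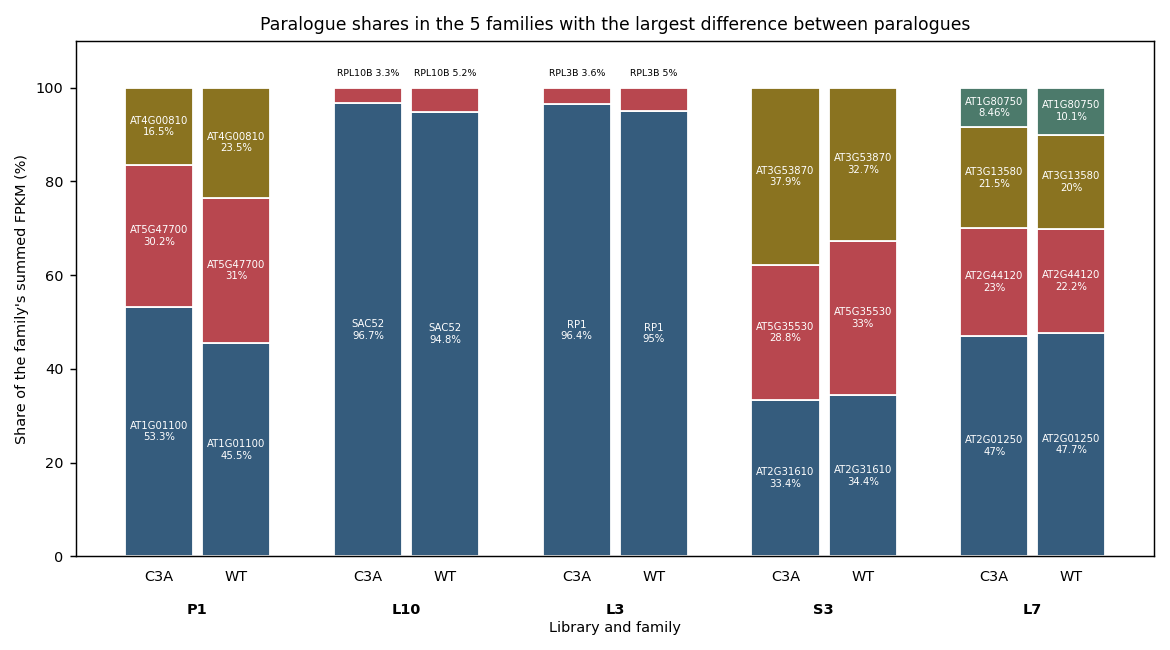
Share of each paralogue in the summed FPKM of the members of its family, with the C3A bar left of the WT bar, for the 5 families with the largest spread between paralogues. Family genes outside the list, such as AT1G66580 of L10 with 161.24 FPKM in C3A and 107.67 FPKM in WT, are not in the sums. AT1G01100 takes 53.3% of the P1 members' FPKM in C3A and 45.5% in WT, and AT3G53870 takes 37.9% of that of the S3 members in C3A and 32.7% in WT.

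L7 lies on the outer face of the large subunit. AT3G13580 had 100.59 FPKM in C3A and 63.94 FPKM in WT, a ratio of 1.57. AT2G44120 had 107.51 FPKM in C3A and 70.90 FPKM in WT, and AT2G01250, the most abundant, 219.43 FPKM in C3A and 152.32 FPKM in WT. Among these 3 the intervals for the ratio of folds held 1, and their proteins are 89.1% to 90.2% identical. AT1G80750 (chr1:30348670-30350564, plus) stood apart at 39.51 FPKM in C3A and 32.26 FPKM in WT, a ratio of 1.22 (1.08 to 1.40). Its protein is only 41.9% to 42.9% identical to the others. The folds of the other paralogues were 1.28 (1.1 to 1.51), 1.24 (1.07 to 1.44) and 1.18 (1.02 to 1.36) times that of AT1G80750, in the order given.

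L11 and L5 bind the 5S ribosomal RNA together. In the L11 family, named RPL16 in the annotation, RPL16B had 147.06 FPKM in C3A and 102.88 FPKM in WT and AT5G45775 had 106.57 FPKM in C3A and 68.65 FPKM in WT. AT3G58700 had 41.80 FPKM in C3A and 26.60 FPKM in WT, and RPL16A had 16.82 FPKM in C3A and 13.74 FPKM in WT. RPL16A had the lowest ratio, 1.22 (0.974 to 1.55), but no pair of this family had an interval that left out 1. In the L5 family ATL5 had 293.02 FPKM in C3A and 215.52 FPKM in WT, and RPL5B 214.67 FPKM in C3A and 155.76 FPKM in WT. The L5 paralogues hardly differed, with a ratio of folds of 1.01 (0.947 to 1.09).

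L4 lines the exit tunnel for the growing peptide and L23a surrounds its opening. AT3G09630 of the L4 family had 196.75 FPKM in C3A and 152.08 FPKM in WT, and AT5G02870 had 183.02 FPKM in C3A and 126.81 FPKM in WT. The fold of AT5G02870 was 1.12 times that of its paralogue (1.04 to 1.20), and the levels drew nearer to each other in C3A. In the L23a family RPL23AA had 276.19 FPKM in C3A and 180.94 FPKM in WT, and RPL23AB 117.18 FPKM in C3A and 94.10 FPKM in WT. Here the more abundant gene had the higher fold, by 1.23 times (1.1 to 1.37).

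STV1, an L24 protein known in Arabidopsis for reinitiation of translation after upstream reading frames, had 202.41 FPKM in C3A and 131.47 FPKM in WT. Its paralogue RPL24A had 135.69 FPKM in C3A and 95.52 FPKM in WT. Their ratios of 1.54 and 1.42 differed by no more than counting error, with a ratio of folds of 1.08 (0.976 to 1.20). In the L9 family PGY2, known for its effect on leaf polarity, had 368.27 FPKM in C3A and 264.57 FPKM in WT, and AT1G33120 had 180.50 FPKM in C3A and 125.30 FPKM in WT. The L9 pair encode identical proteins and share a transcript stretch of 565 bases, so the split of reads between them is uncertain. A further L9 gene outside the list, AT4G10450, had 22.30 FPKM in C3A and 11.65 FPKM in WT, a ratio of 1.91 (1.55 to 2.38).

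The L8 protein is a core component close to the catalytic centre. EMB2296 of this family had 344.07 FPKM in C3A and 237.85 FPKM in WT, and AT4G36130 had 91.70 FPKM in C3A and 70.13 FPKM in WT. The fold of EMB2296 was 1.11 times that of AT4G36130 (1.01 to 1.21), an interval that barely leaves out 1. AT4G36130 shares 19.0% of its 75-base windows with AT4G36140, which lies on the opposite strand.

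In the L18 family the order of the paralogues by level differed between the libraries. AT5G27850 had 254.04 FPKM in C3A and 155.96 FPKM in WT, while RPL18 had 246.02 FPKM in C3A and 179.80 FPKM in WT. AT5G27850 was thus the higher of the pair in C3A, by 1.03 times, and the lower in WT, with a ratio of folds of 1.19 (1.1 to 1.29). By estimated counts it held 53.2% of the pair in C3A (51.9 to 54.4) and 48.6% in WT (47.1 to 50.2). The order in WT by counts was thus within counting error. AT5G27850 shares 14.4% of its windows with AT5G27860 on the opposite strand, so part of its reads may not be its own.

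The L28 and L27a families completed the large subunit. AT2G19730 of L28 had 271.28 FPKM in C3A and 186.84 FPKM in WT, and AT4G29410 had 121.45 FPKM in C3A and 75.39 FPKM in WT. RPL27AB had 179.87 FPKM in C3A and 114.62 FPKM in WT, and AT1G70600 had 169.57 FPKM in C3A and 108.58 FPKM in WT. Neither pair differed in fold beyond counting error. RPL27AB shares 98.1% of its windows with AT1G23300 on the opposite strand, so its value is uncertain.

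In the small subunit S3 lies at the entry of the messenger RNA channel. AT3G53870 (chr3:19951424-19953018, plus) had 226.15 FPKM in C3A and 135.52 FPKM in WT, a ratio of 1.67 (1.57 to 1.77). AT2G31610 (chr2:13450241-13451982, plus) had 199.48 FPKM in C3A and 142.55 FPKM in WT, a ratio of 1.40. AT5G35530 (chr5:13710026-13712288, minus) had 171.86 FPKM in C3A and 136.70 FPKM in WT, a ratio of 1.26. The paralogues were within a narrow band in WT and spread out in C3A, where AT3G53870, the lowest of the 3 in WT, was the highest. All 3 pairs had an interval that left out 1: the fold of AT3G53870 was 1.33 times that of AT5G35530 (1.22 to 1.44) and 1.19 times that of AT2G31610 (1.1 to 1.29), and the fold of AT2G31610 was 1.11 times that of AT5G35530 (1.02 to 1.21). By estimated counts AT3G53870 held 36.1% of the family in C3A (35.1 to 37.2) and 31.1% in WT (29.9 to 32.3).

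S13 was the third family with a changed order by FPKM, though not by estimated counts. AT3G60770 had 231.10 FPKM in C3A and 141.04 FPKM in WT, while RPS13A had 226.31 FPKM in C3A and 163.22 FPKM in WT. The pair was nearly level in C3A, where the FPKM of AT3G60770 was 1.02 times that of RPS13A. By estimated counts RPS13A held 51.1% of the pair in C3A (49.7 to 52.5) and 55.2% in WT (53.5 to 56.9). The order in C3A thus lay within counting error. The ratio of folds was 1.18 (1.08 to 1.29) for proteins that are 99.3% identical. In the remaining 19 families with paralogues the order by level was the same in both libraries.

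S18 proteins sit in the head of the small subunit, and the 3 paralogues encode identical proteins. RPS18C had 332.39 FPKM in C3A and 200.11 FPKM in WT, and PFL, whose mutant has pointed first leaves, had 182.57 FPKM in C3A and 117.48 FPKM in WT. AT1G34030 had 105.67 FPKM in C3A and 75.16 FPKM in WT. The ratios of 1.66, 1.55 and 1.41 followed the order of abundance, and only the outer pair had an interval that left out 1, at 1.18 (1.05 to 1.33). RPS15, the sole member listed for S15 and a neighbour of the decoding site, had 347.47 FPKM in C3A and 217.05 FPKM in WT, a ratio of 1.60 (1.52 to 1.69).

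S6 is the classical target of S6 kinase downstream of TOR. EMB3010 had 300.01 FPKM in C3A and 209.30 FPKM in WT, and RPS6 had 272.82 FPKM in C3A and 170.44 FPKM in WT. The fold of RPS6 was 1.12 times that of EMB3010 (1.04 to 1.20). S5 lines the exit side of the messenger RNA channel, and RPS5A, whose promoter is widely used for dividing tissue, had 240.98 FPKM in C3A and 158.96 FPKM in WT. RPS5B had 93.81 FPKM in C3A and 70.04 FPKM in WT, and the fold of RPS5A was 1.13 times that of RPS5B (1.02 to 1.25).

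The S2 and SA families each had a single dominant gene among their members. AT2G41840 of S2 had 335.29 FPKM in C3A and 249.68 FPKM in WT, XW6 (AT1G58380) had 27.82 FPKM in C3A and 21.34 FPKM in WT, and AT3G57490 had 14.34 FPKM in C3A and 8.84 FPKM in WT. XW6 shares 18% of its windows with near copies on chromosome 1, one of which, AT1G58983, had 295.74 FPKM in C3A and 198.38 FPKM in WT, so its own level is uncertain. P40 of the SA family had 383.68 FPKM in C3A and 278.83 FPKM in WT, and RPSAb had 5.32 FPKM in C3A and 3.83 FPKM in WT, the lowest level of any member. P40 held 98.6% of the pair's FPKM in both libraries. None of these pairs differed in fold beyond counting error.

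The other 132 cytosolic ribosomal protein genes were higher in C3A as well. Of the 118 that passed the 1 FPKM filter, 115, or 97.5%, were above 0, with a median log2 ratio of 0.60. At least 1.5-fold higher in C3A were 64, or 54.2%. Of all genes tested 61.7% were above 0 and 18.6% at least 1.5-fold higher. Their summed FPKM was 18739.5 in C3A and 12231.2 in WT, a ratio of 1.53. The largest ratios among those with at least 5 FPKM were of L39, L31 and L41 genes. AT3G02190 (L39) had 21.01 FPKM in C3A and 8.42 FPKM in WT, and AT4G31985 (L39) had 100.61 FPKM in C3A and 46.94 FPKM in WT. AT2G19740 (L31) had 97.23 FPKM in C3A and 45.93 FPKM in WT, and AT3G56020 (L41) had 103.72 FPKM in C3A and 51.41 FPKM in WT.

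Ribosomal proteins of the organelles did not all follow. The 25 plastid ribosomal protein genes tested had a median log2 ratio of 0.07, below the all-gene median, and this median was -0.09 with the libraries rescaled to an all-gene median ratio of 1. Their summed FPKM was 5566.94 in C3A and 5539.2 in WT, with 16 genes above 0, 9 below and 1 at least 1.5-fold higher. These were 64% above 0 and 4% past 1.5-fold, beside 61.7% and 18.6% of all genes tested. The 1 gene past 1.5-fold, AT1G16790, had 12.23 FPKM in C3A and 6.06 FPKM in WT, a ratio of 2.02 (1.49 to 2.75). PSRP5 had 310.11 FPKM in C3A and 247.13 FPKM in WT, while AT5G24490 had 263.36 FPKM in C3A and 370.95 FPKM in WT. The 14 mitochondrial ribosomal protein genes tested were all above 0, with a median of 0.41 and 5, or 35.7%, past 1.5-fold, beside 18.6% of all genes tested. Of these AT3G59650 had 18.65 FPKM in C3A and 9.44 FPKM in WT, and AT5G56940 had 40.98 FPKM in C3A and 26.14 FPKM in WT.

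Translation factors and the machinery that assembles ribosomes lay above the all-gene median as well. Of 40 cytosolic translation factors 39 were above 0, with a median log2 ratio of 0.38 and 6 past 1.5-fold. The share above 0 was 97.5%, beside 61.7% of all genes tested. The share past 1.5-fold was 15%, below the 18.6% of all genes tested. The elongation factor 1B gamma gene AT1G57720 had 227.35 FPKM in C3A and 138.59 FPKM in WT, the highest ratio of this list at 1.64, and the initiation factor eIF2 beta gene AT5G20920 had 54.47 FPKM in C3A and 33.65 FPKM in WT, a ratio of 1.62. Of 27 ribosome biogenesis genes tested 25, or 92.6%, were above 0, with a median of 0.43 and 7, or 25.9%, past 1.5-fold. Among all genes tested these shares were 61.7% and 18.6%. NOP10, a protein of the particles that pseudouridylate ribosomal RNA, had 86.27 FPKM in C3A and 47.46 FPKM in WT, and the methyltransferase gene FIB1 had 113.5 FPKM in C3A and 65.82 FPKM in WT.

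Of 13 genes of TOR signalling and of regulators of ribosomal protein genes, 10 were above 0, with a median log2 ratio of 0.41 and 3 past 1.5-fold. Above 0 were thus 76.9% and past 1.5-fold 23.1%, beside 61.7% and 18.6% of all genes tested. S6K2, one of the S6 kinases, had 10.46 FPKM in C3A and 4.65 FPKM in WT, a ratio of 2.25 (1.79 to 2.84). Its paralogue S6K1 had 21.87 FPKM in C3A and 23.27 FPKM in WT, and TOR itself had 10.02 FPKM in C3A and 9.1 FPKM in WT. ANAC082, a factor known in Arabidopsis for the response to ribosomal stress, had 54.18 FPKM in C3A and 31.41 FPKM in WT. TCTP1, a growth regulator linked to TOR, had 1790.24 FPKM in C3A and 1131.33 FPKM in WT.

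**Figure D4:**
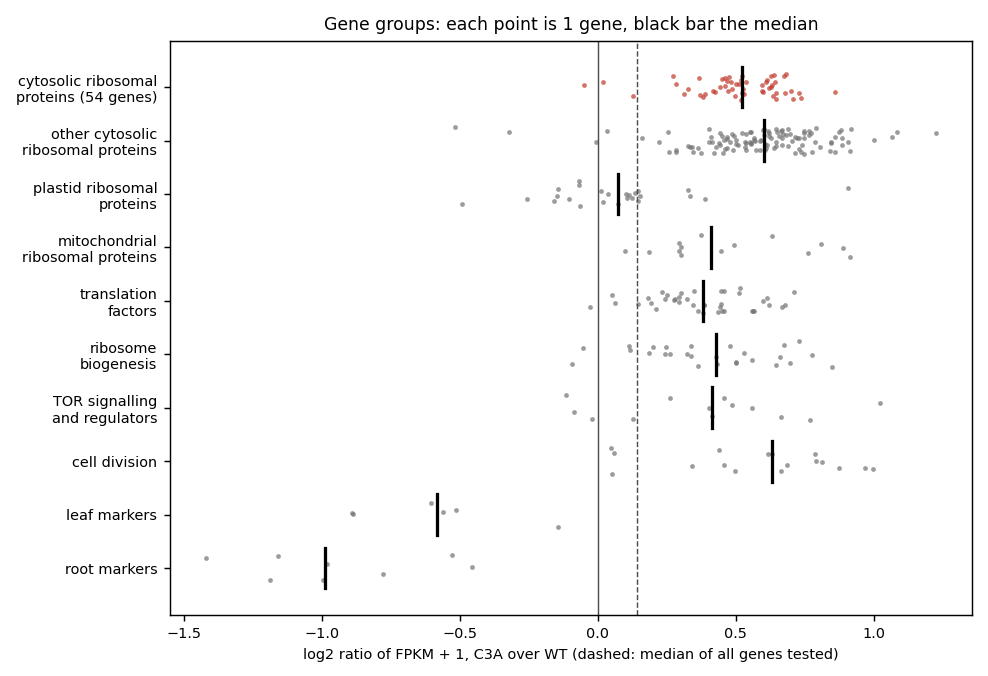
Log2 ratio of FPKM + 1, C3A over WT, for each gene of the ribosomal protein groups, related lists and tissue markers, with a black bar at each median and a dashed line at the all-gene median of 0.14. The cytosolic ribosomal proteins centre on 0.52 and 0.60, plastid ribosomal proteins on 0.07 (-0.09 when the libraries are rescaled to an all-gene median ratio of 1), and leaf and root markers lie below 0.

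Markers of tissues and cell states also differed between the libraries. All 17 cell division genes were above 0, with a median log2 ratio of 0.63, 10 past 1.5-fold and summed FPKM of 219.93 in C3A and 137.33 in WT. Past 1.5-fold were thus 58.8%, beside 18.6% of all genes tested, of which 61.7% were above 0. Above the all-gene median lay 14 of the 17. Below that median were MCM2, MCM3 and MCM5, with log2 ratios of 0.06, 0.05 and 0.05. KNOLLE, a syntaxin of the dividing cell plate, had 20.07 FPKM in C3A and 9.55 FPKM in WT. The meristem gene STM had 5.45 FPKM (112 counts) in C3A and was unlisted in WT, whereas WUS, CLV3 and AP1 were unlisted in both and AG had 0.11 FPKM (2 counts) in C3A and was unlisted in WT. All 6 leaf markers were below 0, with a median of -0.58 and sums of 15266.9 FPKM in C3A and 23907 FPKM in WT. RBCS1A alone had 8374.95 FPKM in C3A and 12729.3 FPKM in WT. All 8 root markers were below 0 too, with a median of -0.99 and sums of 41.88 FPKM in C3A and 83.15 FPKM in WT. Of the 19527 genes tested 7441 were below 0. At least 1.5-fold lower were 3 of the leaf markers and 6 of the root markers, beside 8.9% of all genes tested. The part of cell makeup in the ribosomal protein result was not tested.

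Length and ratio were weakly and negatively related. Over all 19527 genes the Spearman correlation of deposited length and log2 ratio was -0.15. It was -0.30 over the 54 members and -0.41 over the 172 cytosolic ribosomal protein genes tested. These points share both libraries. Among genes longer than 500 and up to 1000 bases the 22 members had a median log2 ratio of 0.60, the 85 other cytosolic ribosomal protein genes 0.62 and the remaining 2943 genes 0.30. From 1000 to 1500 bases the medians were 0.50 for the 29 members, 0.50 for 25 other cytosolic genes and 0.19 for 5103 remaining genes. From 1500 to 2500 bases the medians were 0.53 for 3 members, 0.49 for 2 other cytosolic genes and 0.12 for 7565 remaining genes. No member was as short as 500 bases or longer than 2500, where the remaining genes had medians of 0.22 and 0.02. Within the 3 ranges that held members, the members' median lay above that of the remaining genes. The medians did not fall with length throughout: that of the 3 longest members was above that of the 29 members of 1000 to 1500 bases, and the remaining genes up to 500 bases were below those of 500 to 1000. These ranges were chosen after the values were seen, and the part of length in the result was not tested.

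**Figure D5:**
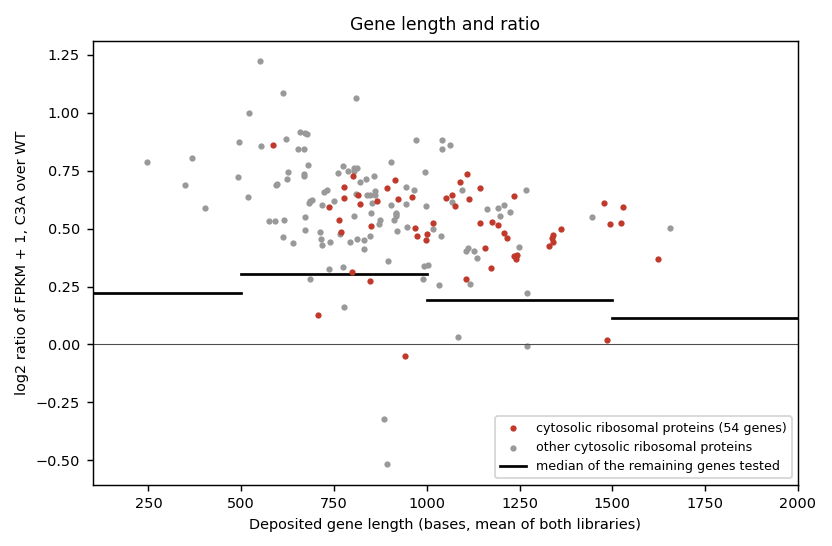
Log2 ratio of FPKM + 1, C3A over WT, against deposited gene length for the 54 genes and the other cytosolic ribosomal protein genes, with black lines at the median of the remaining genes in each length range. Between 500 and 1000 bases the members centre on 0.60 and the remaining genes on 0.30.

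The estimated counts were fractional in 31 members and whole in 23, where fractions arise when fragments are divided between genes or transcripts. Another annotated gene overlapped 18 members, 13 of them with a partner on the opposite strand, and 13 members shared at least 1 window of 75 bases with another transcript. The deposited gene length differed between the libraries for 25 members. Left to the 23 members with whole counts, all 23 were above 0, and 9 of the 23 were at least 1.5-fold higher in C3A.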

How the data were processed

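RNA from 1 C3A and 1 WT rosette library was sequenced as 150 bp paired-end reads, per the labels' protocols. Trimmomatic 0.36, HISAT and TAIR10 are named in the submitters' processing notes. The sources used here give neither the HISAT version nor the quantification tool nor the use of strand. The authors deposited, per the file headers, an estimated count per gene (not scaled, partly fractional), a gene length in bases and an FPKM, which is that count scaled to length and library size. FPKM was used as deposited, and unlisted genes were set to 0.

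From these values the log2 ratio of FPKM + 1, C3A over WT, was computed for genes with at least 1 FPKM in either library. Such ratios understate differences of low genes. Plain ratios carry exact conditional 95% intervals from estimated counts rounded to whole numbers, and shares carry Clopper-Pearson intervals. Reads carried no molecular identifiers and need not be independent molecules, so these intervals cover counting error only. There was 1 library per genotype, hence no test. The thresholds were 1.5-fold and 2-fold. Families were assigned from gene names and annotated descriptions, as were the ribosomal protein groups; 138 further genes with ribosomal descriptions that did not settle their location were not used. All 54 identifiers matched the RefSeq annotation of TAIR10.1, whose coordinates and sequences are printed. Protein identity came from a global alignment of translated coding sequences, and shared sequence from 75-base windows of transcripts on both strands.

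All members are named, with full detail for the 5 families with the largest spread between paralogues, and up to 4 genes per list by size of ratio at 5 FPKM or more in either library; S6K1, TOR and 3 further paralogues were added after their values were seen. The 54 members and the 7 lists with 117 genes were chosen with earlier results of these data known. Alternatives were other pseudocounts, filters and scalings, and leaving out members with fractional counts or overlaps. The steps were tested on simulated data. Python 3.11.15, pandas 2.3.3, numpy 2.4.6, scipy 1.17.1, matplotlib 3.10.9, biopython 1.88 and R 4.3.3 were used, and edgeR 4.0.16 gave the TMM scaling factors of 1 alternative.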

Additional observations from a re-analysis of the deposited data

How the results depend on the processing

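The log2 ratios moved with the scaling of the libraries, since the all-gene median was 0.14 as deposited and 0.00 when the FPKM were rescaled to a median ratio of 1, -0.00 when rescaled without the 100 most abundant genes, and 0.01 with TMM-scaled counts. Under these 3 scalings, in that order, the median log2 ratio was 0.36, 0.35 and 0.37 for the members, 0.36, 0.36 and 0.37 for the large subunit and 0.34, 0.34 and 0.35 for the small subunit. It was 0.44, 0.44 and 0.45 for the other cytosolic ribosomal proteins, 0.26, 0.25 and 0.28 for the mitochondrial ones and 0.22, 0.22 and 0.23 for the translation factors. The plastid median turned to -0.0877, -0.0928 and -0.0795. RPL3B turned to -0.13, -0.14 and -0.13, and AT4G00810 to -0.0336, -0.0387 and -0.0218. Members at least 1.5-fold higher numbered 22 as deposited and 1 under each of the 3 scalings, which lower every ratio by about the all-gene median. That is 1.85% of members, beside 13.2%, 13.1% and 13.8% of all genes tested, so the members fall below the background share they exceeded as deposited. Above the all-gene median of the same scaling were 51 members under each of the 3. These scalings move all genes and their median together, so this number was nearly fixed in advance and adds no support. Without members with fractional counts 9 remained past 1.5-fold and 23 above 0, and without members that overlap another gene 35 were above 0, out of fewer members. Of all genes tested, 2652 were at least 1.5-fold lower with TMM-scaled counts. At least 2-fold lower were 911 with a pseudocount of 0.1 and 856 with TMM-scaled counts. The members' share of FPKM, 1.40% in C3A and 0.964% in WT, was 1.99% in C3A and 1.53% in WT without the 100 most abundant genes. As a share of counts it was 1.08% in C3A and 0.746% in WT. The difference between the SA paralogues turned to -0.00339 with a pseudocount of 0.1. The other 21 families with paralogues kept the direction of the difference with pseudocounts of 0.1 and 0.5, TMM-scaled counts and counts scaled to library total (CPM), the settings run for it. No paired analysis was possible because there was 1 library per genotype and the labels give no replicate numbers, and no replicate could be left out. Depth limits RPSAb, RPL10B, RPL16A and AT2G40010 most, and differences between plants cannot be judged from these libraries.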
